A study of Mus musculus with 20 samples.

Results

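The nuclear genes for the subunits of the mitochondrial oxidative phosphorylation complexes were examined in sorted cells of the mouse olfactory mucosa. Members were chosen by gene symbol alone: the Ndufa, Ndufb, Ndufc, Ndufs and Ndufv genes, Sdha to Sdhd, symbols that begin with Uqcr, Cox4 to Cox8 or Atp5, and Cyc1, without the Ndufaf assembly factors. The rule found 85 of 19505 genes with a symbol on the array, and each had 1 probe set. By symbol, 37 belonged to complex I, 4 to complex II, 9 to complex III, 18 to complex IV and 17 to complex V, the ATP synthase. Ndufa4 was counted with complex I by its name, although its protein is now placed in complex IV. The 13 subunits encoded by mitochondrial DNA were not analysed here.

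The study sorted cells of S100a5-tauGFP mice, in which green fluorescent protein (GFP) marks cells that use S100a5, a gene transcribed in olfactory sensory neurons according to how active they are. Mice of both sexes, aged 7 to 12 weeks, spent 40 h in chambers with clean air flowing at 3.1 L/min. Pulses of 10 s were given every 20 min from 26 h onwards, after which cells from the mucosa of 3 mice were sorted together. The 20 samples, 1 Clariom S array each, fell into 4 groups of 5. These were GFP+ cells of mice given an odorant (odor GFP+), GFP- cells of the same mice (odor GFP-), GFP+ cells of mice given filtered air (vehicle GFP+) and GFP- cells of those mice (vehicle GFP-). All 30 mice carried the reporter. The sample labels name the odorant as an artificial cigarette smoke odor, and the series' design text names bourgeonal instead. Each GFP+ sample and the GFP- sample of the same condition and number were taken as 1 pool of mice. All values are log2 signals, and the number of arrays limits their precision.

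Oxidative phosphorylation passes electrons from NADH (complex I) and succinate (complex II) through ubiquinone to complex III and cytochrome c, and from there to oxygen at complex IV. Complexes I, III and IV pump protons across the inner mitochondrial membrane, and complex V uses the gradient to make ATP. In olfactory sensory neurons, ATP is needed for ion pumping and for the calcium extrusion that follows odor transduction, while the cilia are known to draw on glycolysis as well.

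Arrays and fractions differed in ways that bear on the values below. Median gene signals ran from 7.03 to 7.46 on the 4 arrays of replicate 5 (1 per group) and from 6.06 to 6.39 on the remaining 16. Another 3 arrays correlated least with their own group, leaving replicate 5 aside: vehicle GFP- 1 (0.895), vehicle GFP+ 2 (0.946) and odor GFP- 2 (0.951). The pools that hold them, vehicle 1, vehicle 2 and odor 2, are called the pools in doubt. S100a5 was higher in GFP+ cells (log2 change 1.73, adjusted p = 0.000239 by limma). Changes were positive for 17 of 17 markers of mature sensory neurons, a list that includes S100a5 itself, and for 62.8% of all probe sets. The test was passed by 3 of the 17 markers, S100a5 among them. GFP- cells held other cell types: 16 of 16 white blood cell markers were lower in GFP+ cells, with a mean log2 level over the list of 5.69 to 5.90 in odor GFP+ samples, 12.2 to 13.1 in odor GFP- samples, 5.61 to 6.12 in vehicle GFP+ samples and 12.6 to 13.4 in vehicle GFP- samples. Of these markers, Itgam, Elane and Camp lay at or below the median of the background control probes on all 10 GFP+ arrays. Markers of microvillar cells (9 of 10), sustentacular cells (5 of 10), progenitors (5 of 8) and immature neurons (6 of 14) were also called lower in GFP+ cells. The share of all probe sets called lower was 9.39%. Changes were positive for 4 of the 14 immature neuron markers and for 0 of the microvillar, sustentacular and progenitor markers. The part of this difference in cell makeup in the results below was not tested, and in such bulk samples more cells of a type and more RNA per cell cannot be told apart.

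Most oxidative phosphorylation genes had somewhat higher signals in GFP+ than in GFP- cells, and few of these differences passed the test. Over all 10 pools, 80 of 85 members had a positive log2 change, with a median of 0.37. The median over all 22206 gene probe sets was 0.09, and 62.8% of them were positive. At an adjusted p under 0.05 (limma on the differences within pools, Benjamini-Hochberg over all probe sets), 8 members (9.41%) were higher and 1 (1.18%) was lower. The background was 4.61% of all probe sets called higher and 9.39% called lower, 14% in either direction. No member had all 10 GFP+ arrays above all 10 GFP- arrays, as 0.477% of all probe sets did, or all below, as 2.59% did. The GFP+ sample was the higher in 10 of 10 pools for 4 members (Cox7a1, Ndufb10, Ndufv2 and Sdhc) and for 2.77% of all probe sets. Lower in 10 of 10 pools were 0 members and 6.4% of all probe sets.

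The count of calls moved with the pools used. Without the pools in doubt it was 15 higher, without both pools numbered 5 it was 2 (Ndufv2 and Ndufv3), with array weights it was 27, and with GFP+ and GFP- samples taken as unpaired it was 0. Leaving out 1 pool gave 2 without odor pool 1, 3 without odor pool 3 or vehicle pool 5, 4 without odor pool 4, 13 without vehicle pool 2 and 18 without vehicle pool 1. When each array was centred on its median, all probe sets shifted to a median of 0.32 with 4307 higher and 1674 lower, and the members to a median of 0.60 with 44 higher and 0 lower. The members' median stood above that of all probe sets by 0.28 as deposited and by 0.17 after quantile normalization. Centring shifts all probe sets of an array alike, so it cannot change this gap.

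**Figure D1:**
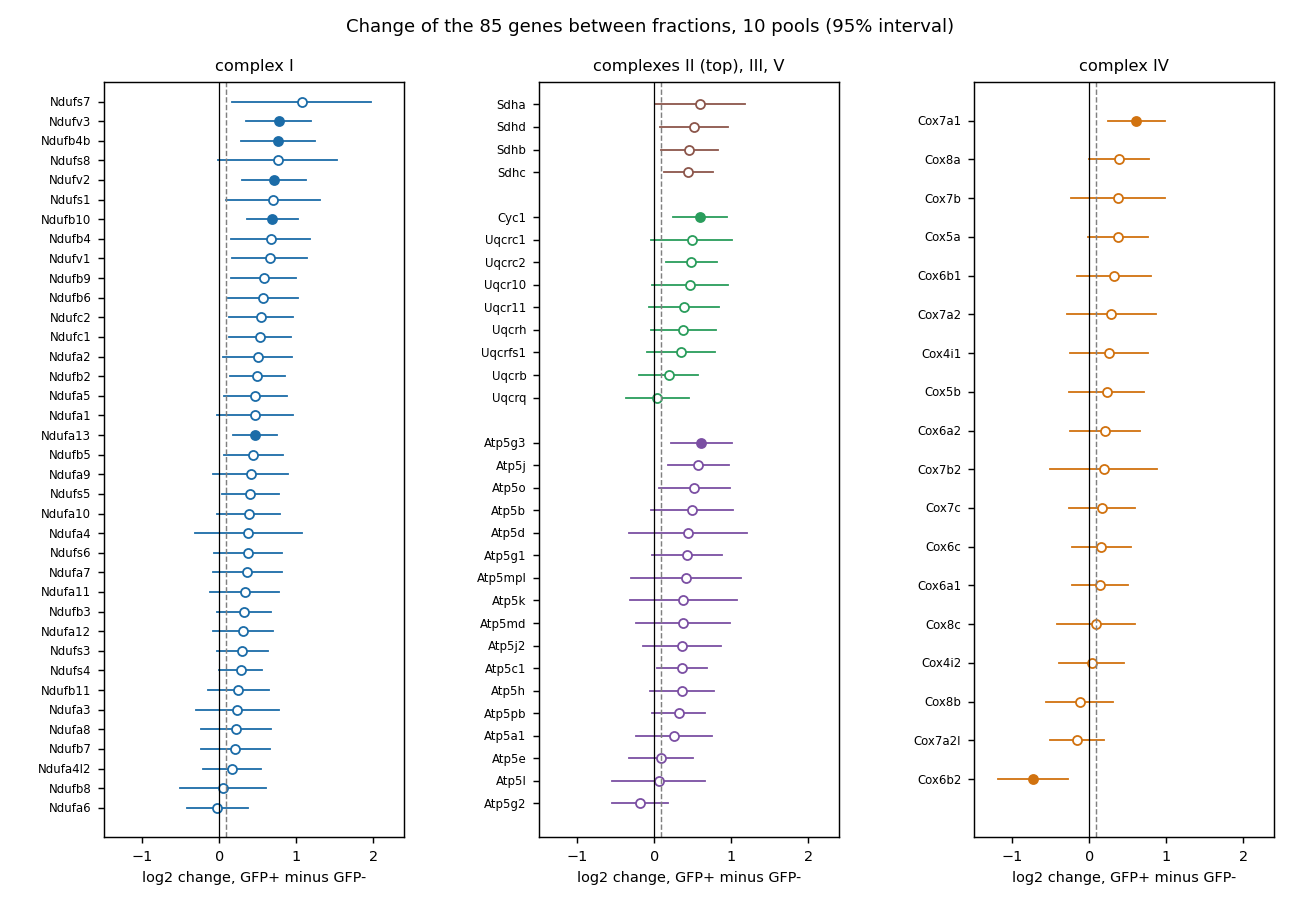
Log2 change GFP+ minus GFP- over 10 pools (horizontal axis) for the 85 members (vertical axis, grouped by complex), with bars for the 95% confidence interval, filled points for members past the adjusted threshold of 0.05 and a dashed grey line at the median of all probe sets, 0.09. Most points lie to the right of the dashed line, and 9 are filled, 8 of them to the right of 0 and Cox6b2 to the left.

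Complex I, where NADH is oxidised, held 37 of the 85 members and 5 of the 8 called higher, Ndufv3, Ndufv2, Ndufb10, Ndufb4b and Ndufa13. These were 13.5% of its members, against 9.41% of all members and 4.61% of all probe sets. The complexes were not tested against each other. In complex I, 36 of 37 members had positive changes (median 0.44). Ndufb10, an accessory subunit of the membrane arm, had the smallest adjusted p of the 85 members. Its signals were 7.71, 7.21, 8.03, 7.88 and 9.22 in odor GFP+ samples 1 to 5, against 7.03, 6.99, 7.56, 6.75 and 8.27 in the odor GFP- samples of the same pools. They were 7.67, 8.15, 7.67, 7.52 and 9.25 in vehicle GFP+ samples, against 7.24, 7.02, 6.59, 7.46 and 8.54 in vehicle GFP- samples. The GFP+ sample was the higher of its pool in 10 of 10 pools, by 0.07 to 1.12, while the groups overlapped, also among replicates 1 to 4, where odor GFP+ 2 (7.21) lay below odor GFP- 3 (7.56) and vehicle GFP- 4 (7.46). The log2 change was 0.69 (SE 0.15, adjusted p = 0.00689 by limma).

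Ndufv2, a core subunit that carries an iron-sulfur cluster in the NADH-oxidising module, was also the higher of its pool in 10 of 10 pools. It had 12.82, 12.49, 12.19, 12.87 and 13.81 in odor GFP+ samples, against 11.55, 11.85, 11.64, 11.83 and 13.68 in odor GFP- samples. In vehicle GFP+ samples it had 12.56, 12.23, 12.58, 12.37 and 14.30, against 10.58, 12.15, 11.94, 12.15 and 13.74 in vehicle GFP- samples. Within replicates 1 to 4, every GFP+ sample exceeded every GFP- sample, but narrowly, at 12.19 in odor GFP+ 3 against 12.15 in vehicle GFP- 2 and 4. How many of all probe sets did so was not counted, and with replicate 5 the fractions overlapped. The difference within pools ran from 0.08 in vehicle pool 2 to 1.98 in vehicle pool 1 (log2 change 0.71, SE 0.19, adjusted p = 0.0233 by limma).

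Ndufv3, a small accessory subunit of the same module, was called higher with GFP+ above GFP- in each odor pool. Its signals were 7.64, 8.22, 7.83, 8.32 and 10.09 in odor GFP+ samples, against 6.80, 6.58, 6.90, 6.94 and 9.75 in odor GFP- samples. They were 7.57, 7.73, 8.23, 7.55 and 10.27 in vehicle GFP+ samples, against 7.41, 7.55, 6.79, 7.86 and 9.19 in vehicle GFP- samples. GFP+ was higher in 9 of 10 pools, with vehicle pool 4 the exception at -0.31 (log2 change 0.77, SE 0.19, adjusted p = 0.0153 by limma). Its call and that of Ndufb10 were kept in 19 and 18 of 20 alternative settings. The other calls over all pools were kept less often. Ndufv2 kept its call in 17 settings, Cyc1 in 14, Cox7a1 in 13, Ndufb4b in 11, Ndufa13 in 10, Cox6b2 in 9 and Atp5g3 in 8.

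Ndufb4b and Ndufa13, accessory subunits of the membrane arm and of its junction with the peripheral arm, completed the calls in complex I. Ndufb4b had 13.99, 13.83, 13.19, 13.94 and 14.35 in odor GFP+ samples, against 11.83, 13.03, 12.06, 12.17 and 14.06 in odor GFP- samples. In vehicle GFP+ samples it had 12.92, 13.30, 13.03, 13.20 and 15.19, against 13.53, 12.03, 13.30, 13.02 and 14.32 in vehicle GFP- samples, so GFP+ was higher in 5 of 5 odor pools and 3 of 5 vehicle pools (log2 change over all pools 0.76, SE 0.22, adjusted p = 0.0361 by limma). Ndufb4, its closely related copy, had a log2 change of 0.67 (adjusted p = 0.0854 by limma), and whether the probes tell these copies apart is not known from the files. Ndufa13, also known as Grim19, was higher in 9 of 10 pools (log2 change 0.46, SE 0.13, adjusted p = 0.0352 by limma).

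The core subunits of the electron path in complex I, apart from Ndufv2, did not pass the test despite sizeable positive changes. Ndufs7, which carries the terminal iron-sulfur cluster next to the ubiquinone site, had the largest change of all 85 members, 1.07, with a 95% confidence interval from 0.17 to 1.97 (adjusted p = 0.122 by limma). Its differences within pools were 1.10, 2.24, 1.41, 2.35 and 0.20 in odor pools and 2.80, -1.95, 2.73, -0.82 and 0.64 in vehicle pools. The vehicle pools thus ran in both directions, and the lowest and the highest of the 10 differences were those of vehicle pools 2 and 1, both among the pools in doubt. Ndufs8, another iron-sulfur subunit, gave 3.19 in vehicle pool 1 and -1.31 in vehicle pool 2 (change 0.76, adjusted p = 0.208 by limma). Ndufs1, the largest subunit, gave 3.15 and -0.46 in the same pools (0.69, adjusted p = 0.142 by limma). Ndufv1, which binds NADH, had a change of 0.65 (adjusted p = 0.077 by limma) and Ndufs3 one of 0.30 (adjusted p = 0.262 by limma).

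Complex II, succinate dehydrogenase, is shared with the citrate cycle. Its 4 members all had positive changes, none past the adjusted threshold. The log2 change was 0.59 for the flavoprotein Sdha (adjusted p = 0.197 by limma), 0.46 for the iron-sulfur subunit Sdhb (0.107), and 0.44 and 0.51 for the membrane anchors Sdhc (0.064) and Sdhd (0.127). For Sdhc the difference was positive in 10 of 10 pools, at 0.12 to 1.23.

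In complex III, Cyc1, the cytochrome that hands electrons to cytochrome c, was called higher, and all 9 members had positive changes (median 0.38). Its signals were 9.80, 9.41, 9.66, 9.27 and 10.89 in odor GFP+ samples, against 9.12, 9.36, 8.87, 9.32 and 11.04 in odor GFP- samples. They were 9.94, 9.54, 9.66, 9.62 and 11.28 in vehicle GFP+ samples, against 8.67, 9.30, 8.59, 9.02 and 9.85 in vehicle GFP- samples. GFP+ was higher in 5 of 5 vehicle pools and in 3 of 5 odor pools (log2 change over all pools 0.59, SE 0.16, adjusted p = 0.0267 by limma). Not past the threshold were the core proteins Uqcrc1 (0.49, adjusted p = 0.242 by limma) and Uqcrc2 (0.48, 0.0586), and Uqcrfs1, the Rieske iron-sulfur protein (0.34, 0.34).

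Complex IV, cytochrome c oxidase, had the smallest median of the complexes, 0.19, and the calls in it were of subunit isoforms known from other tissues. Cox7a1, known as the heart and muscle isoform of subunit VIIa, was higher in GFP+ cells in 10 of 10 pools, by 0.03 to 1.35 (log2 change 0.61, SE 0.17, adjusted p = 0.0303 by limma). Its signal averaged 7.83 ± 0.44 in GFP+ samples and 7.22 ± 0.39 in GFP- samples (SD, n = 10 each). The isoform Cox7a2 and the related Cox7a2l, which is known to join complexes III and IV into supercomplexes, had log2 changes of 0.29 (adjusted p = 0.576 by limma) and -0.16 (0.619). Cox6b2, known as the testis isoform of subunit VIb, was the only member called lower (log2 change -0.73, SE 0.21, adjusted p = 0.0341 by limma, lower in 8 of 10 pools). It averaged 4.43 ± 0.39 in GFP+ samples and 5.16 ± 0.82 in GFP- samples (SD, n = 10 each), at or below the background control median on 18 of 20 arrays. Its counterpart Cox6b1 had a log2 change of 0.32 (adjusted p = 0.422 by limma).

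Other isoforms of complex IV also lay near background. Signals of Cox4i2, known from lung, and of Ndufa4l2 were at or below the background control median on 20 of 20 arrays, Cox8b on 19, Cox7b2 on 8 and Cox8c on 3. None of their changes passed the test. Of the general subunits, Cox4i1 had a log2 change of 0.25 (adjusted p = 0.567 by limma), Cox5a of 0.37 (0.229) and Cox5b of 0.22 (0.613). Taking the 77 members above background on all 20 arrays, which describes the list and tests nothing, the median change was 0.38.

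In complex V, Atp5g3 was called higher. It is a member of the trio of genes for the c subunit of the membrane rotor, which differ in their import sequences and give the same mature protein. Its signals were 12.76, 13.04, 12.87, 13.03 and 14.16 in odor GFP+ samples, against 11.84, 12.12, 12.27, 11.83 and 13.94 in odor GFP- samples. In vehicle GFP+ samples they were 12.78, 13.30, 12.68, 12.58 and 14.79, against 12.79, 12.15, 11.56, 13.05 and 14.33 in vehicle GFP- samples. GFP+ was the higher in all 5 odor pools and in 3 vehicle pools (log2 change 0.61, SE 0.18, adjusted p = 0.0397 by limma). The other two genes differed in sign, Atp5g1 at 0.42 (adjusted p = 0.241 by limma) and Atp5g2 at -0.19 (0.564), and the value of Atp5g2 turned to 0.04 when arrays were centred. The difference between these genes was not tested. The subunits of the catalytic head, Atp5a1 and Atp5b, had changes of 0.26 (0.554) and 0.49 (0.24), and Atp5j, the coupling factor of the stator, of 0.57 (0.0548).

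**Figure D2:**
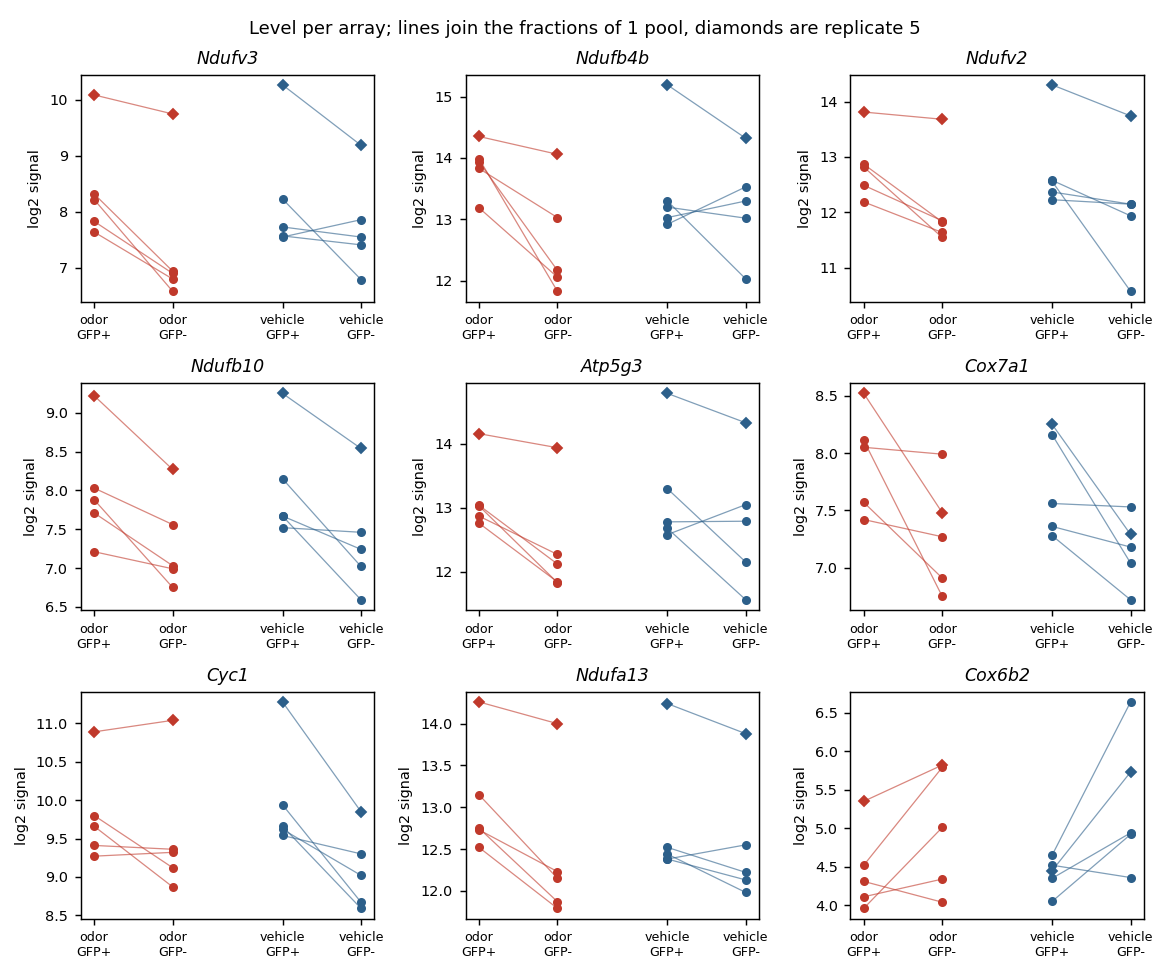
Log2 signal on each array (points) for the called members, in columns for odor GFP+, odor GFP-, vehicle GFP+ and vehicle GFP- samples. Lines join the GFP+ and GFP- samples of a pool, and diamonds are replicate 5. The GFP+ point is the higher in every pool for Ndufb10, Ndufv2 and Cox7a1, and in every vehicle pool for Cyc1. For Cox6b2 it is the lower in 8 of 10 pools.

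The members' own regulatory sequence was read from RefSeq (GRCm38.p6), which gave a promoter, from 250 bases before to 50 after the start, for 69 of the 85. Nuclear respiratory factor 1 (NRF1), GABP of the ETS family and YY1 are known regulators of such genes. The palindromic NRF1 motif, the 10 capitals of the sequence of Atp5g2 below, stood in 7.25% of the 69 members and in 1.56% of 15691 array genes with a promoter. CCGGAAGT (ETS) stood in 7.25% and 5.88%, and the YY1 motif, the 10 capitals of Atp5j, in 7.25% and 1.46%. Both strands were searched, no test was made, and none of the 7 promoters of members called higher held any of the 3 motifs. The shares also count matches after the start, where YY1 stood in Ndufa9, Ndufs4, Ndufs6 and Ndufs7 but not in Atp5j. Such matches are not printed. The sequences below show where the letters of the motifs lie before the start of members from different complexes. They cover chr15:102671055-102671114 for Atp5g2, chr5:108434415-108434474 for Atp5k, chr5:115349086-115349145 for Cox6a1 and chr16:84835030-84835089 for Atp5j, all on the minus strand. Ndufa11 follows from chr17:56717677-56717736 on the plus strand, and Uqcrh from chr4:116075071-116075130 on the minus strand. Each is printed 5′ to 3′ in the direction of its gene, with the motif in capitals, NRF1 in the leading 4, YY1 in Atp5j and ETS, on the opposite strand, in Uqcrh.
Atp5g2: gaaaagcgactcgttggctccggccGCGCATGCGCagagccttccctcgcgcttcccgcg
Atp5k: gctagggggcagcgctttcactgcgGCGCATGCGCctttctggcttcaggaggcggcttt
Cox6a1: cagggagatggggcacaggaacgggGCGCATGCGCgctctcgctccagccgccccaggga
Ndufa11: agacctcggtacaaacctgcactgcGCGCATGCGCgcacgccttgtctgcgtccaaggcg
Atp5j: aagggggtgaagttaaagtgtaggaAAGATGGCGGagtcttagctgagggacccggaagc
Uqcrh: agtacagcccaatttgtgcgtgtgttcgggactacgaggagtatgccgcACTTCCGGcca

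The difference between fractions varied from pool to pool. The median difference GFP+ minus GFP- over the 85 members was 0.85, 0.38, 0.58, 0.62 and 0.05 in odor pools 1 to 5, and -0.41, 0.79, 0.23, -0.07 and 0.46 in vehicle pools 1 to 5. It was positive in every odor pool and in 3 of 5 vehicle pools, and averaged 0.49 ± 0.30 in odor pools and 0.20 ± 0.46 in vehicle pools (SD, n = 5 each). From 51 to 78 members were higher in GFP+ cells in each odor pool, and from 34 to 79 in each vehicle pool. For the markers of mature sensory neurons the medians were 0.37, 0.95, 0.30, 0.36 and 0.20 in odor pools and 2.15, -0.42, 0.95, -0.10 and 0.26 in vehicle pools, where vehicle pools 1 and 2 thus had the opposite sign to the members. The vehicle pools with the lowest and the highest member median, 1 and 2, were both among the pools in doubt.

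**Figure D3:**
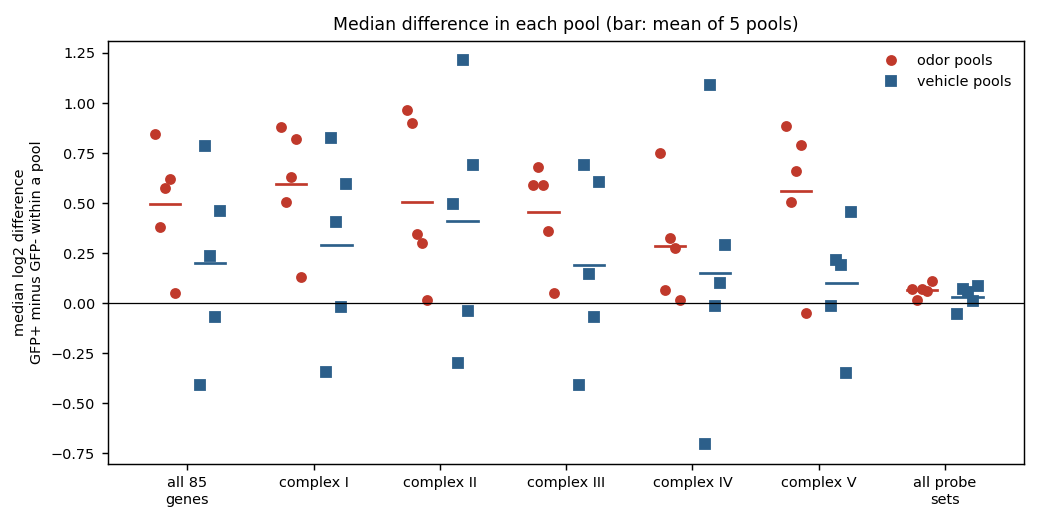
Median difference GFP+ minus GFP- in log2 signal over the genes of each list, 1 point per pool, odor pools left of vehicle pools, with a bar for the mean of 5 pools. Points of the members are positive in 5 of 5 odor pools and in 3 of 5 vehicle pools.

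On the arrays in doubt, members deviated in both directions. On vehicle GFP- 1, members differed from the mean of the other replicates among 1 to 4 of that group by -3.04 to 2.75. Here 14 members lay more than 1 below and 28 more than 1 above, where 23.7% and 18.4% of all probe sets did so. On vehicle GFP+ 2 the members' range was -2.42 to 1.84, and on odor GFP- 2 it was -1.55 to 2.12. Atp5d, Atp5g1, Ndufs7, Ndufs8, Sdha and Uqcrc1 were more than 1 lower on all 3 arrays, as were 5.42% of all probe sets. Atp5l, Atp5mpl, Cox7b and Ndufa4 were more than 1 higher on all 3, as were 2.06%. Ndufs7 stood at -2.87, -2.42 and -1.31 on these arrays, and Atp5mpl, a small subunit of the ATP synthase, at 1.80, 1.78 and 2.12. The arrays of replicate 5 were higher than the other replicates for 82 of 85 members, by a median of 1.44 and at most 3.73, the value of Ndufs7.

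Both conditions were also tested apart. In odor pools 4 members were called higher and 0 lower (background 2.07% of all probe sets called higher, 5.82% lower and 7.89% in either direction), and 80 of 85 changes were positive with a median of 0.53. They were Ndufb4b (log2 change 1.23, SE 0.31, adjusted p = 0.0267), Ndufv3 (1.03, SE 0.27, adjusted p = 0.0338), Ndufa13 (0.68, SE 0.19, adjusted p = 0.0432) and Ndufb2, another accessory subunit of the membrane arm (0.82, SE 0.23, adjusted p = 0.0494), all by limma. Each was higher in GFP+ cells in 5 of 5 odor pools. Of 20 alternative settings, 15 kept the call of Ndufb4b, 14 that of Ndufv3, 9 that of Ndufa13 and 8 that of Ndufb2. With odor pool 1, 3 or 4 left out, 0 members were called. The count was 1 without odor pool 2, 2 without vehicle pool 3 and 7 without vehicle pool 1, through the shared spread for the vehicle pools. It was 8 without the pools in doubt, 13 with centring and 29 with array weights, but 1 with quantile normalization, 2 with a term for replicate 5 and 0 with unpaired fractions. In vehicle pools 1 member, Cyc1, was called higher and 0 lower (background 2.26% higher, 6.86% lower and 9.11% either way), with 68 of 85 changes positive and a median of 0.24. Its log2 change there was 0.92 (SE 0.23, adjusted p = 0.0212 by limma), and the call was kept in 15 of 20 alternative settings. Called higher were 0 members without vehicle pool 1, 3 or 5, without both pools numbered 5 or with unpaired fractions. Without vehicle pool 3, 1 member was called lower. The count of higher calls was 2 without vehicle pool 2 or 4 or with quantile normalization, and 6 with centring. Without vehicle pool 2 the median fell to 0.05. The medians by complex were 0.56, 0.53, 0.54, 0.31 and 0.61 in odor pools for complexes I to V, and 0.29, 0.44, 0.33, 0.06 and 0.12 in vehicle pools.

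Whether the difference between fractions depended on the odor was tested as an interaction, and no member passed. The adjusted p was 1.0 by limma for each of the 85, and 0 of them had an unadjusted p under 0.05, as did 1.21% of all probe sets (0% of all probe sets were called). The median of the member interactions was 0.34, against 0.01 over all probe sets, with a range from -0.65 for Cyc1 to 0.94 for Ndufb4b. The 95% confidence interval of Ndufb4b ran from -0.02 to 1.90, that of the complex IV subunit Cox8a (0.76) from -0.02 to 1.54 and that of Cyc1 from -1.36 to 0.05. Each of these intervals spanned 0. Leaving out vehicle pool 1 lowered the median interaction to 0.18.

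The odor itself, compared with vehicle within each fraction, gave no call among the members. In GFP+ cells 0 of 85 members and 0% of all probe sets were called by limma, and 0 members and 0.275% of all probe sets had an unadjusted p under 0.05. The median change of the members was 0.07, which turned to -0.02 after quantile normalization and ran from -0.18 without odor pool 5 to 0.42 without vehicle pool 5. The smallest p values belonged to Ndufs8 (log2 change 0.66, 95% confidence interval from -0.23 to 1.55), the stator subunit Atp5h (0.39, from -0.18 to 0.96) and Ndufb9 (0.43, from -0.21 to 1.08). The fits behind the intervals of both fractions held no term for the replicate number. The higher signals of replicate 5 therefore count as spread in them. With the replicate number as a block, 0 members were called as well. In GFP- cells 0 members and 0% of all probe sets were called, 0 members and 0.135% had an unadjusted p under 0.05, and the median was -0.23 with 19 positive, or 0.02 without vehicle pool 5 and -0.55 without odor pool 5. There the smallest p values belonged to Ndufc1 (-0.61, from -1.43 to 0.21), Ndufs6 (-0.65, from -1.66 to 0.36) and Ndufa4 (-0.86, from -2.20 to 0.49). White blood cell markers in the same fraction had a median change of -0.68 and cytosolic ribosomal protein genes of -0.35, with 0 called in either list, and their part in the members' values was not tested.

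**Figure D4:**
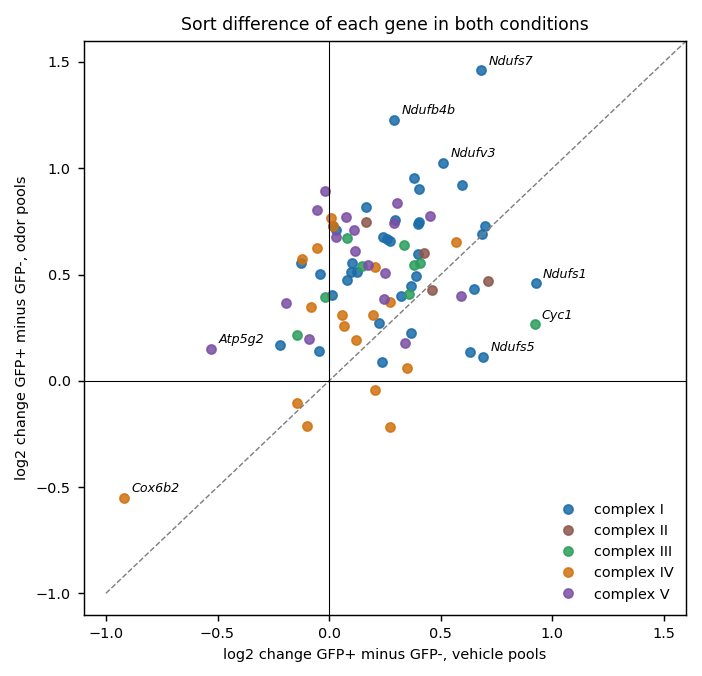
Log2 change GFP+ minus GFP- of each of the 85 members in vehicle pools (horizontal axis) and in odor pools (vertical axis), coloured by complex. On the dashed grey line both changes are equal. The medians are 0.24 in vehicle pools and 0.53 in odor pools.

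Other mitochondrial genes were set beside the members, in lists chosen by function. Over all pools, 4.61% of all probe sets were called higher and 9.39% lower. Of 44 assembly factors of the complexes, 4 were higher in GFP+ cells over all pools and 0 lower (median 0.29). They were Ndufaf5 (log2 change 0.92), Ttc19 (0.63), Ecsit (0.62) and Ndufab1 (0.42). Ndufaf5 and Ecsit serve complex I and Ttc19 complex III. Ndufab1 is the mitochondrial acyl carrier protein and itself an accessory subunit of complex I, which the symbol rule for the 85 members did not take in. Of 76 mitochondrial ribosomal proteins, 8 were higher and 0 lower (median 0.30), led by Mrpl23 (0.73) and Mrpl40 (0.65). Of 24 import and carrier genes, Ckmt1, the mitochondrial creatine kinase (0.87), and Timm17a, of the inner membrane translocase (0.56), were higher and 0 were lower (median 0.26). Each of these lists had a median above that of all probe sets, 0.09.

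Among 17 regulators of mitochondrial biogenesis, 2 were higher and 0 lower (median 0.10). These were Ppargc1a, a coactivator of nuclear genes for mitochondrial proteins (0.95, adjusted p = 0.0361 by limma), and Tefm, an elongation factor of mitochondrial transcription (0.89, adjusted p = 0.00466 by limma). Of 17 genes of the citrate cycle and pyruvate dehydrogenase, Fh1, the fumarase, was higher (0.52, adjusted p = 0.0155 by limma) and 0 were lower (median 0.30). With 4.61% of all probe sets called higher, 1 or 2 calls in 17 genes are not read as a result about the list.

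Glycolysis genes were divided. Of 17 measured, 1 was higher, Eno2, the neuronal enolase (log2 change 0.88), and 3 were lower: Slc2a3, a glucose transporter that white blood cells also use (-3.12), Ldha, the lactate dehydrogenase A subunit (-2.51), and Pgk1 (-0.88). The median of the list was 0.33. Of all probe sets, 4.61% were called higher and 9.39% lower. Cytosolic ribosomal protein genes ran opposite to the members, with 0 higher, 30 of 54 lower and a median of -0.70, led by Rplp0 (-1.60) and Rps16 (-1.41). Quantile normalization and centring kept the sign of the median of each list named here.

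**Figure D5:**
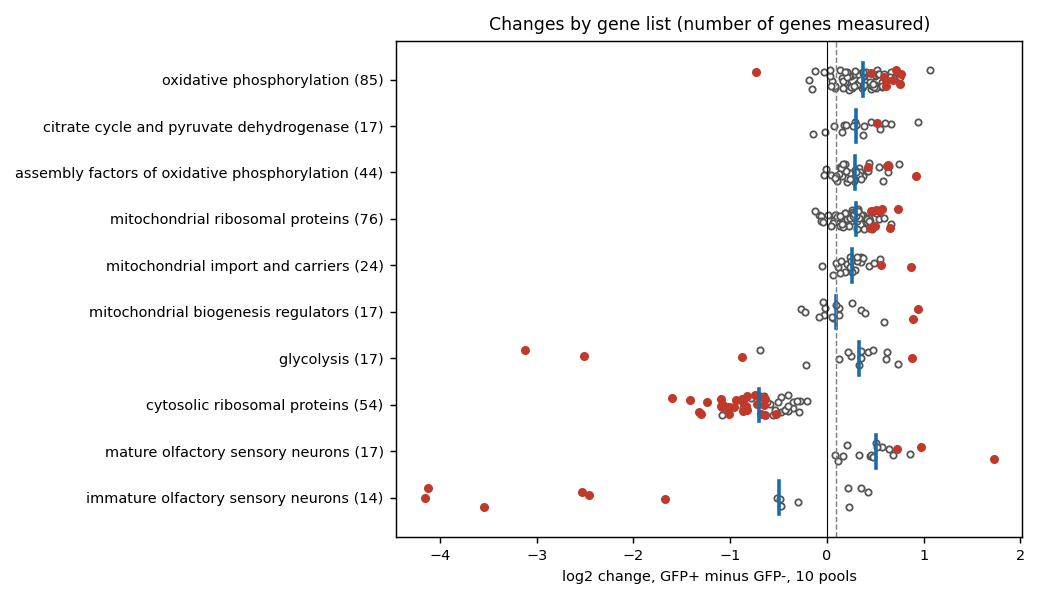
Log2 change GFP+ minus GFP- over all pools for every gene of the members and of the lists set beside them, red where called, with a blue bar at the median. The members' median is 0.37 and that of the cytosolic ribosomal proteins -0.70.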

How the data were processed

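Per the labels' protocols, biotinylated cRNA from 50 to 100 ng of RNA was hybridised to Clariom S arrays, which were processed with Affymetrix Expression Console, per the submitters' processing notes. Neither its version nor how arrays were normalized is stated there or in the labels. The values were deposited as log2 signals and taken without further scaling. Of 28846 rows, 6640 control rows were left out and 22206 kept, with no filter on dim probe sets. The files hold no detection calls, so a control-probe median stood for background.

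The sort was tested with limma 3.58.1 in R 4.3.3 on the differences GFP+ minus GFP- within 10 pools, with odor and vehicle as coefficients, and odor against vehicle on the 10 samples of each fraction. P-values were adjusted by Benjamini-Hochberg over all 22206 probe sets at 0.05. That both fractions of a number came from the same mice follows from the labels, where 30 mice make pools of 3. In GFP+ cells, deviations of odor and vehicle samples of the same number from their group means correlated at 0.251, 0.522, 0.349, 0.157 and 0.862, all above the limit of 0.1, and in GFP- cells number 2 was at -0.378. Identical values between any 2 arrays came to at most 0.0104%.

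The members and lists were chosen with earlier results of these data known. Named genes were the called members, the 10 highest and 10 lowest, the 3 smallest p of the odor comparisons, tissue isoforms, core subunits, and the leading genes of each list. Genes singled out on the arrays in doubt, and the lists' other called genes, were chosen after their values were seen. The code was tested on simulated data, for the sort over all pools only. The simulated noise was independent, with no shift of replicate 5 and no arrays in doubt. It recovered 96 of 100 changes of 4-fold and 67 of 100 changes of 2-fold, and 5.78% of the calls were false. Smaller changes were not simulated. Alternatives were other scalings, a filter on dim probe sets, an intensity trend, array weights, a term for replicate 5, other pairings and leaving pools out.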

Additional observations from a re-analysis of the deposited data

Results flagged for a closer look

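On 3 arrays of replicate 5 the median level of the 85 members stood apart from the other 4 arrays of the group. It was 13.11 on odor GFP+ 5 (the others 11.32 to 11.71), 12.99 on odor GFP- 5 (10.79 to 11.08) and 13.13 on vehicle GFP+ 5 (10.93 to 11.36). These were 3 of 46 sets of 5 values examined, or 6.52%. Chance marks about 5% of independent sets, but these sets overlap, so the shares cannot be compared. Over all genes, too, the arrays of replicate 5 had higher medians, 7.03 to 7.46 against 6.06 to 6.39 on the other arrays.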

How the results depend on the processing

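The medians of the members over all pools and in odor pools stayed positive under every alternative run. The number of members higher in GFP+ cells over all pools (8 as reported) became 44 with centring, 27 with array weights, 2 without both pools numbered 5, 15 without the 3 pools in doubt and 0 with no replicate block, that is, with unpaired fractions. Leaving out 1 pool at a time gave 2 (without odor 1) to 18 (without vehicle 1), and 13 without vehicle 2. The 1 member lower became 0 with centring, without both pools numbered 5, without the pools in doubt, with no replicate block and without some single pools (range 0 to 1). In odor pools the 4 higher became 1 with quantile normalization, 13 with centring, 29 with array weights, 2 with a term for replicate 5, 8 without the pools in doubt and 0 with no replicate block (0 to 7 without single pools). In vehicle pools the 1 higher became 2 with quantile normalization, 6 with centring, 0 without both pools numbered 5 and 0 with no replicate block (0 to 2 without single pools, and 0 to 1 lower). The odor comparisons kept 0 calls throughout, the replicate block included. Signs turned for Cox6a1 with quantile normalization (-0.000277), for Cox7a2l (0.0673), Cox8b (0.10) and Atp5g2 (0.0375) with centring, for Cox4i2 with array weights (-0.0514) and without the pools in doubt (-0.0801), and for Cox8c there (-0.0019). Without single pools they turned for Cox4i2 (range -0.101 to 0.145), Cox8c (-0.0843 to 0.226) and Cox7b2 (-0.140 to 0.404). The causes were not tested, and genes near background are limited by signal over background.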
